A study of Rattus norvegicus with 6 samples.

Results

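Fibroblast growth factor (FGF) signalling was followed here through 10 genes: the receptors Fgfr1, Fgfr2 and Fgfr3, the ligands Fgf2, Fgf7 and Fgf18, and the feedback inhibitors Dusp6, Spry1, Spry2 and Spry4. The genes were chosen by symbol, and all 10 were among the 17954 genes of the files. The mRNA of 2 rat models of the mandibular condyle, which carries the cartilage of the jaw joint, was sequenced. One was condylar chondrocytes grown flat in DMEM with 20% fetal bovine serum and antibiotics (2D culture, 3 libraries), and the other was condylar cartilage organoids kept in a chondrogenic medium (3 libraries). The sources used here do not give the strain or age of the rats, the cells the organoids were built from, or what the chondrogenic medium contained. Culture format, medium and any difference in starting cells go together and cannot be told apart, and no label tells whether replicate libraries stem from different rats or dishes. The p-values therefore measure only the spread between these libraries, which may be technical.

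FGFs bind receptor tyrosine kinases together with heparan sulfate chains of the cell surface, and the receptors signal through RAS and RAF to the kinase ERK. Active ERK switches on ETS-family transcription factors and its own inhibitors, among them the phosphatase Dusp6 and the Sprouty proteins, so these transcripts are widely used as a readout of the pathway. In growth cartilage, Fgfr3 is the receptor of proliferating and prehypertrophic chondrocytes and restrains their growth, Fgfr1 is found in hypertrophic chondrocytes and osteoblasts, and Fgfr2 in perichondrium and bone-forming precursors.

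Library totals ran from 18592574 to 26472447 estimated counts. Levels are CPM, the counts of a gene scaled to a common library size with TMM factors, and are given as mean ± SD with n = 3. Positive log2 fold changes, given with their SE, are higher in organoids. A gene is said to rise or fall where edgeR's quasi-likelihood test gave an adjusted p under 0.05 over all genes tested. In simulated data the test found 4.1% of 2-fold and 58% of 4-fold changes. A gene that did not pass may therefore still differ. Of 13052 genes tested, 27.5% were called, 14.9% as higher and 12.6% as lower in organoids. Scaled by total library size, 23.1% of the called genes were higher, against 54.1% with TMM. The libraries labelled 2D chondrocytes held 2.91 to 4.89 CPM of the cartilage collagen gene Col2a1, against 6413.6 to 78320.7 CPM in organoids, and 1413.4 to 1513.1 against 1716.5 to 8278.2 CPM of the proteoglycan gene Acan, which did not pass. Of 9 tested chondrocyte markers 8 rose, as did all 5 hypertrophic and all 8 osteoblast and osteocyte markers, and all 6 contractile fibroblast markers fell. The regulator Sox9, the hypertrophic collagen gene Col10a1 and the bone matrix gene Ibsp rose by 4.25 ± 0.33, 11.57 ± 1.13 and 12.27 ± 0.50 in log2, and Acta2, smooth muscle actin, fell by 6.83. The summed level of the osteoblast list went from 602.7 to 674.9 CPM in 2D culture to 20476 to 27424.8 CPM in organoids, and that of the contractile list from 5389.2 to 5727 CPM to 340.1 to 478.4 CPM. The 7 endothelial markers summed to at most 4.71 CPM in any library, with Kdr at 0 counts in all organoids and Cdh5, Emcn and Tie1 at 0 in all 2D cultures. The part of these cell identities in the results below was not tested, and in bulk RNA fewer cells of a type and less RNA per cell cannot be told apart.

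Transcripts of the receptors Fgfr3 and Fgfr1 rose in organoids and Fgfr2 did not pass. Of the 8 members that passed the filter on low counts, 4 were called, with Fgfr1 and Fgfr3 higher and Fgf7 and Dusp6 lower. That is 50% of those tested, beside 27.5% of all genes. The members were chosen with earlier results of these data known, so this share is a description only. The groups did not overlap for 6 of the 8, beside 53.5% of all genes. The median log2 fold change of the 8 was 0.00164, beside -0.0326 over all genes tested.

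Fgfr3 (gene ID 84489), mutated to an overactive form in achondroplasia, stood at 20.3, 23.9 and 19.0 CPM in 2D culture 1, 2 and 3 and at 328.5, 382.8 and 233.6 CPM in organoid 1, 2 and 3. Every organoid was far above every 2D culture. The mean went from 21.1 ± 2.54 to 315 ± 75.5 CPM, a log2 fold change of 3.90 ± 0.27, or 14.9-fold (edgeR adjusted p = 0.00041). The call held in all 14 alternative fits, with log2 fold changes from 3.28 to 4.07.

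Fgfr1 (gene ID 79114) rose by less. Its level was 94.6, 110.1 and 102.5 CPM in 2D culture and 356.3, 640.7 and 463.2 CPM in organoids, without overlap. The mean went from 102.4 ± 7.76 to 486.8 ± 143.6 CPM, a log2 fold change of 2.25 ± 0.27 (edgeR adjusted p = 0.00253), and the call held in all 14 alternatives.

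Fgfr2 (gene ID 25022) was not called. It had 64.8, 63.7 and 59.6 CPM in 2D culture and 84.4, 65.5 and 132.6 CPM in organoids, so that organoid 2 lay just above the highest 2D culture. The log2 fold change was 0.59 ± 0.29 (edgeR adjusted p = 0.174). Without organoid 2 it was 0.84 and passed (adjusted p = 0.0281), and when scaled by total library size it was -0.02 (adjusted p = 0.97). The deposited values are per gene, so the splice forms of the receptors, which differ in the ligands they bind, were not analysed here.

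**Figure D1:**
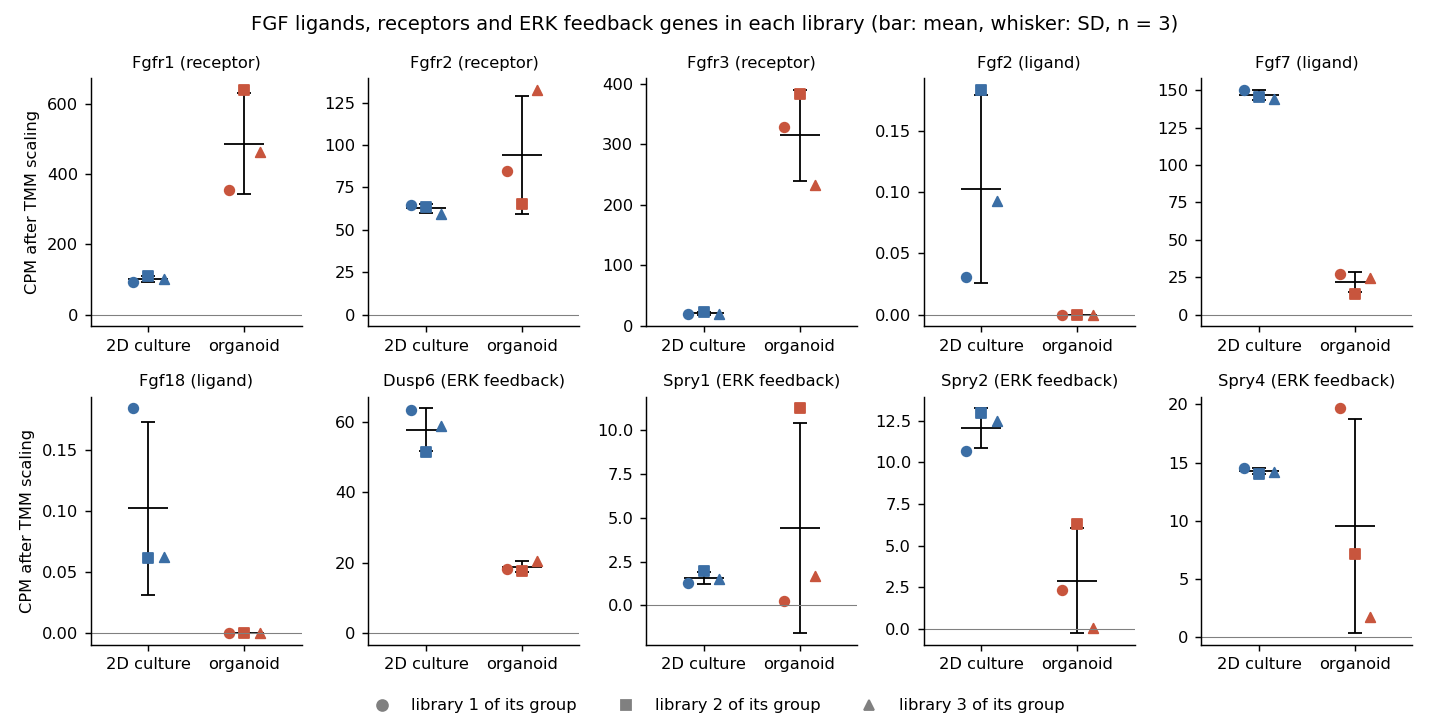
CPM of each of the 10 genes (vertical axes, linear, differing between panels) in the 3 libraries of 2D culture and the 3 of organoids, with mean and SD. Fgfr1 and Fgfr3 are higher and Fgf7 and Dusp6 lower in every organoid, while the Sprouty genes scatter widely among organoids.

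Relative to the other receptors, organoids held more Fgfr3 and less Fgfr2 than 2D culture. The balance was measured as the ratio of counts within a library, which does not depend on how libraries are scaled to each other; gene lengths cancel when 1 ratio is compared between groups, but a single ratio is of reads and not of molecules. The Fgfr3/Fgfr1 ratio was 0.215, 0.217 and 0.186 in 2D culture and 0.922, 0.597 and 0.504 in organoids. The mean log2 ratio was 1.67 ± 0.27 (SE) higher in organoids, or 3.17-fold. The Fgfr2/Fgfr1 ratio was 0.685, 0.579 and 0.581 in 2D culture and 0.237, 0.102 and 0.286 in organoids, a difference of -1.68 ± 0.46 in log2. The groups did not overlap for either ratio.

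The largest difference of the 3 ratios was in Fgfr3/Fgfr2, with 0.314, 0.376 and 0.32 in 2D culture and 3.89, 5.84 and 1.76 in organoids. Of the pair, Fgfr2 had more reads in every 2D culture and Fgfr3 in every organoid, a log2 difference of 3.35 ± 0.51 (10.2-fold). As a share of the reads of the 3 receptors, Fgfr3 made up 11.3 ± 0.796% in 2D culture and 35.3 ± 7.27% in organoids, and Fgfr2 33.7 ± 2.04% and 10.99 ± 4.99%. The share of Fgfr1 was 55.0 ± 2.07% and 53.7 ± 6.54%, a difference of -1.31 ± 3.96 percentage points (SE), with overlapping groups (exact permutation p = 0.9). It turned to 2.36 points without organoid 1. The other 5 measures gave a two-sided exact permutation p of 0.1, the smallest that 3 against 3 allows, and 0.12 after Benjamini-Hochberg adjustment over the 6 measures.

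**Figure D2:**
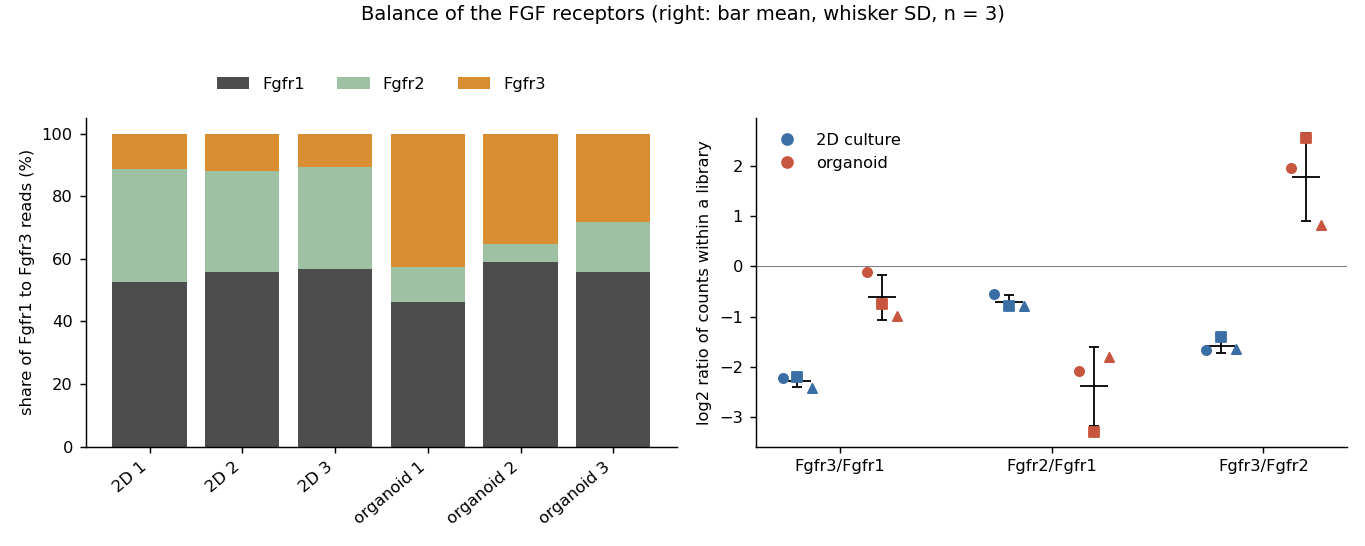
Left, share of Fgfr1, Fgfr2 and Fgfr3 in their summed reads (%) in each library. Right, log2 ratios of counts within each library with mean and SD per group. The Fgfr3 share is 28.2 to 42.7% in organoids against 10.51 to 12.1% in 2D culture.

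The organoids differed in where the balance lay. Organoid 1 had the highest Fgfr3/Fgfr1 ratio and organoid 2 the lowest Fgfr2 share, 6.01%, against 10.97% and 15.99% in organoids 1 and 3. Organoid 2 also held the most Fgfr1 and Fgfr3 and the least Fgfr2, Fgf7 and Dusp6 of the 3 organoids. It had the lowest Col2a1 level of the organoids, 6413.6 CPM, and the fewest counts in all, and their part in its receptor levels was not tested.

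The upstream sequence of Fgfr3 is shown because this gene had the largest called change of the 10, and it can be set beside the feedback genes below. Sequences are from RefSeq promoters of assembly GRCr8, which held 9 of the 10 genes (Fgfr1 was not matched). Each was searched from 250 bases before to 50 after the start, on both strands, for the ETS core CCGGAA, the capicua (CIC) cores TGAATGA and TGAATGG, and the AP-1 site TGACTCA. CIC is a repressor that ERK inactivates. These motifs were in 15%, 7.46% and 4.63% of 33469 promoters of the same length. No site in the members overlapped another motif. The 250 bases before the start of Fgfr3 (chr14:81227210-81227459, GRCr8, minus strand, 5′ to 3′) held none of the motifs and were 74.4% G and C.

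Fgfr3: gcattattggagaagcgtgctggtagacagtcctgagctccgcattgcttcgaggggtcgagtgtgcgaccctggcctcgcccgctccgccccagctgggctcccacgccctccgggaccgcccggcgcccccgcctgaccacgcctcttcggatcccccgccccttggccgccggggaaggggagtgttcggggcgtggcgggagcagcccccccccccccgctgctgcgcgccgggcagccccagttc

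Among the ligands, Fgf7 fell and Fgf2 and Fgf18 were barely detected. Fgf7 (gene ID 29348), the keratinocyte growth factor made by mesenchymal cells, had 150.3, 145.1 and 144.2 CPM in 2D culture and 27.3, 14.1 and 24.4 CPM in organoids. The 2D cultures lay close together and all organoids were far below them. Fgf7 fell by 2.74 on the log2 scale (SE 0.29, edgeR adjusted p = 0.00157), or 6.68-fold, and its call held in all 14 alternatives.

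Fgf18 (gene ID 29369), a perichondrial ligand that acts on Fgfr3 in cartilage, had 6, 2 and 2 counts in 2D culture and 0 in every organoid. Fgf2 (gene ID 54250), a broad mitogen often added to chondrocyte cultures, had 1, 6 and 3 counts in 2D culture and 0 in every organoid. Both were removed by the low-count filter and have no test. Set against 3 counts over the group, the limit that a count of 0 allows, each was 1.87-fold lower in organoids. The 10 pooled counts of 2D culture were taken as exact there, so their counting error is not covered. The value is therefore not a firm lower limit. Fgf2 had a fractional estimate in 1 library, as arises where a read matches more than 1 gene. It also overlaps Nudt6 in the RefSeq table, and the sources used here do not say whether strand was used in counting, which leaves reads of the overlap unassignable to either gene.

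Of 12 other genes of the FGF family in the files, 8 were tested, 1 rose, 1 fell and 6 did not pass, which is 25% called beside 27.5% of all genes (median log2 fold change 1.40). The 8 include Fgf11, Fgf12, Fgf13 and Fgf14, whose products are not secreted and are not ligands of these receptors, and the riser, Fgf11, is one of them. Of the other 4, Fgf10 fell and Fgf1, Fgf9 and Fgf22 did not pass. Fgf3, Fgf8, Fgf17 and Fgf21 were below the filter. Fgf10, a mesenchymal ligand of the Fgfr2 splice form of epithelia, fell from 261, 266 and 258 counts in 2D culture to 2, 0 and 0 counts in organoids. Pooled and scaled, it was 220-fold lower, with an exact 95% interval of 60.7 to 1820 for counting error (edgeR adjusted p = 0.00592). Fgf10 was called in all 14 alternatives.

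Fgf11 had 2 counts in all of 2D culture and 2.18, 1.68 and 7.81 CPM in organoids. It was 205-fold higher, with an exact 95% interval of 56.1 to 1704 for counting error (edgeR adjusted p = 0.0146). The call was lost when 2D culture 1, 2 or 3 was left out (edgeR adjusted p = 0.0565 to 0.0821). Over all genes, those fits called 1109 to 1211 of 13366 to 13395 tested, against 3594 of 13052 in the main fit. The paracrine ligand Fgf1 had 2.27, 3.70 and 3.16 CPM in 2D culture and 8.43, 5.17 and 9.04 CPM in organoids, without overlap, and did not pass (edgeR adjusted p = 0.0988).

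Among 9 other receptor and partner genes, 5 were tested, of which 1 rose, 1 fell and 3 did not pass, which is 40% called beside 27.5% of all genes (median 2.70). Fgfr4, Kl, Fgfbp1 and Fgfbp3 were below the filter, and Fgfr4 was at most 0.397 CPM in any library. Fgfrl1, a receptor without a kinase domain, stood at 8.21, 9.35 and 8.23 CPM in 2D culture and 106.8, 33.0 and 60.0 CPM in organoids. It rose by 2.95 ± 0.45 in log2 (edgeR adjusted p = 0.0055). Flrt2, a membrane protein of a family that binds FGF receptors, went from 86.3 ± 8.81 to 14.98 ± 5.52 CPM and fell by 2.52 in log2 (edgeR adjusted p = 0.00322). Both calls held in all 14 alternatives. Klb, the co-receptor of endocrine FGFs, had 0.0613, 0.336 and 0.217 CPM in 2D culture and 2.36, 0.36 and 4.12 CPM in organoids, and did not pass (adjusted p = 0.0681).

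**Figure D3:**
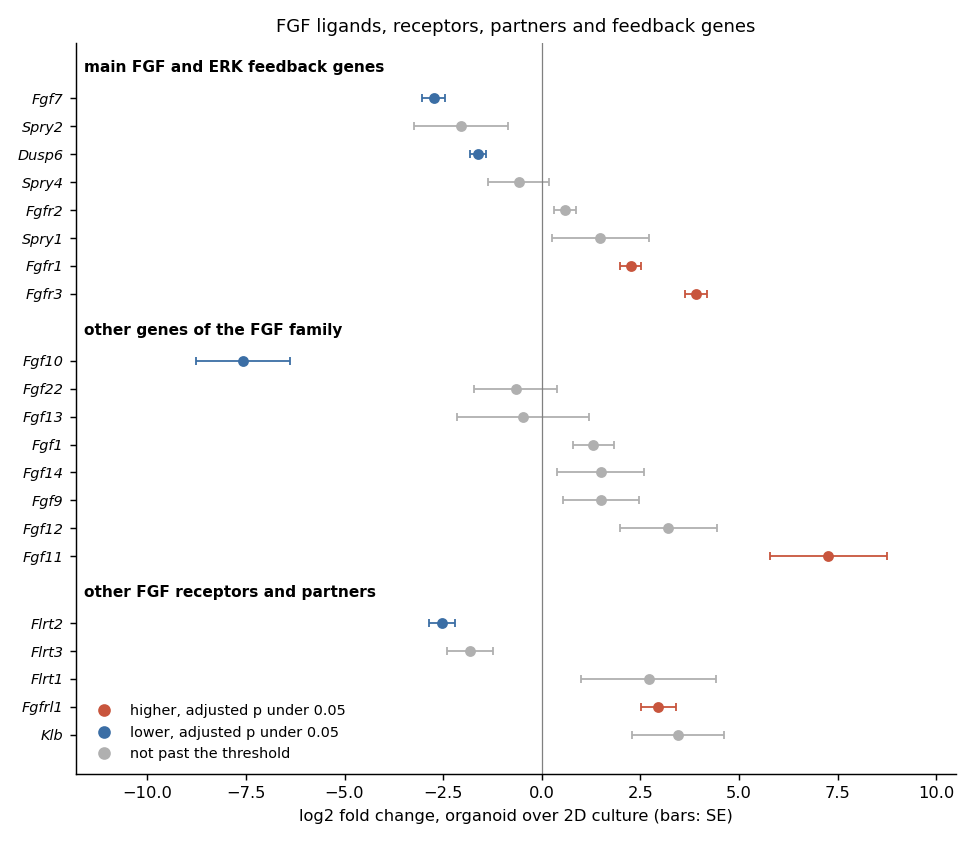
Log2 fold change, organoid over 2D culture, with SE for the tested genes among the 10 members, other genes of the FGF family, and the other receptors and partners. Red genes were higher, blue lower and grey not past the threshold; the fitted values of Fgf10 and Fgf11 rest on 2 counts in the lower group. Fgfr3, Fgfr1 and Fgfrl1 lie to the right of 0 with short bars, Fgf7 and Flrt2 to the left.

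Of the 4 feedback inhibitors Dusp6 fell and the 3 Sprouty genes did not pass. Dusp6 (gene ID 116663), the phosphatase that inactivates ERK in the cytoplasm, had 63.2, 51.2 and 58.7 CPM in 2D culture and 18.3, 17.6 and 20.5 CPM in organoids. All organoids lay close together below all 2D cultures. Dusp6 fell by 1.62 on the log2 scale (SE 0.21, edgeR adjusted p = 0.00314), or 3.07-fold, and its call held in all 14 alternatives.

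The Sprouty genes inhibit the path from the receptors to ERK. Spry2 (gene ID 306141) had 10.7, 13.0 and 12.5 CPM in 2D culture and 2.36, 6.31 and 0.0473 CPM in organoids. Each organoid was below each 2D culture, and organoid 3 held 1 count. The log2 fold change was -2.06 ± 1.19 (edgeR adjusted p = 0.243), and the adjusted p was 0.0554 with limma-voom, the lowest over the alternatives.

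Spry4 (gene ID 291610) had 14.5, 14.0 and 14.2 CPM in 2D culture and 19.7, 7.15 and 1.70 CPM in organoids. Organoid 1 was above and organoids 2 and 3 were below all 2D cultures (-0.58 ± 0.77, edgeR adjusted p = 0.613). Spry1 (gene ID 294981) was low, with 1.26, 1.96 and 1.49 CPM in 2D culture and 0.236, 11.2 and 1.70 CPM in organoids. Its log2 fold change of 1.48 ± 1.24 (edgeR adjusted p = 0.41) rested on organoid 2 and was -0.63 without it (adjusted p = 0.62).

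The Sprouty genes had the widest spread among organoids of the 8 tested members. The SD of log2 CPM over the organoids was 2.59, 2.95 and 1.74 for Spry1, Spry2 and Spry4, above 92.5%, 95.2% and 85.5% of all genes tested. These SDs rest in part on few counts, and the genes they are ranked among have any level. Organoids 1, 2 and 3 held 4, 187 and 36 counts of Spry1, 40, 105 and 1 of Spry2, and 334, 119 and 36 of Spry4. It was 0.365 to 0.515 for the 3 receptors and Fgf7, and 0.116 for Dusp6, below all but 3.82% of genes. The median over all genes was 0.689 in organoids and 0.137 in 2D culture. The difference in spread between these genes was not tested.

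**Figure D4:**
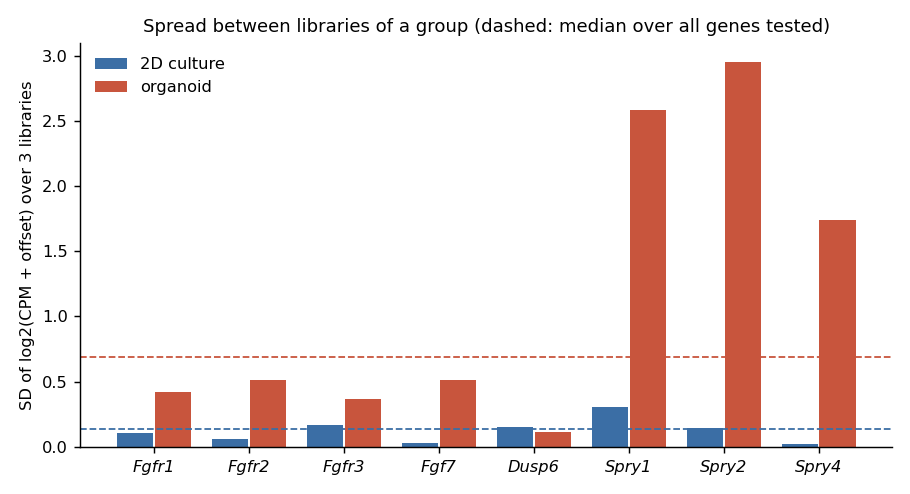
SD of log2 CPM over the 3 libraries of each group for the 8 tested members, with dashed lines at the median over all genes tested (0.137 in 2D culture, 0.689 in organoids). Spry1, Spry2 and Spry4 exceed the organoid median and the other 5 members are below it.

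The upstream sequences of Dusp6 and Spry2 are shown because they are feedback genes that each hold 1 of the motifs that ERK-controlled factors read. The 250 bases before the start of Dusp6 (chr7:35979354-35979603, GRCr8, plus strand) hold 1 CIC core, in capitals, beginning at position -146. The first Spry2 promoter (chr15:89111927-89112176, GRCr8, minus strand) holds 1 ETS core, in capitals, beginning at -171. The other Spry2 promoter, which is not shown, holds none of the motifs. The Dusp6 and Spry2 sequences are written 5′ to 3′.

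Dusp6: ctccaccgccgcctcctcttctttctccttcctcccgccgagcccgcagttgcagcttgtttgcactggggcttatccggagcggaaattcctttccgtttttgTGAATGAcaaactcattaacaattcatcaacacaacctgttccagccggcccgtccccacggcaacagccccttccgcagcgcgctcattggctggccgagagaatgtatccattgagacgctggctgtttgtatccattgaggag

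Spry2: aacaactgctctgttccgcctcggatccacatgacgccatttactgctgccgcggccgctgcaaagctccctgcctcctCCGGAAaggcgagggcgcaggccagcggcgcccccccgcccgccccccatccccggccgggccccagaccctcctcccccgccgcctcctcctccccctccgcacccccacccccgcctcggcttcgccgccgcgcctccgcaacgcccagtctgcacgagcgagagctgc

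Spry4 held 4 CIC cores and 1 ETS core in its window, and no motif was found for the other 6 genes with a promoter in the table. The start positions of the Spry4 CIC cores were -197, -71, -16 and 37. Dusp6, with 1 CIC core, fell, and Spry4, with 4, did not pass. A match is a description of letters and says nothing of binding.

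Among 26 other tested feedback and target genes of ERK 6 rose and 3 fell, while 17 did not pass. That is 34.6% called beside 27.5% of all genes (median 0.169), and Spry3, Dusp4, Dusp5 and Egr3 were below the filter. Etv1, an ETS factor of the group that FGF signals induce, rose from 4.57 ± 1.07 to 44.2 ± 12.5 CPM (3.27 ± 0.34 in log2, edgeR adjusted p = 0.00148). Its relatives did not pass. Etv4 had 15.6, 14.7 and 15.1 CPM in 2D culture and 0.53, 4.81 and 0 CPM in organoids (adjusted p = 0.151). Etv5 had 84.4, 89.4 and 89.0 CPM in 2D culture and 45.4, 79.1 and 79.7 CPM in organoids (adjusted p = 0.339).

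Ccnd1, the cyclin that carries growth signals into the cell cycle, fell from 604.3 ± 4.56 to 149.3 ± 33.1 CPM (-2.02 ± 0.24, edgeR adjusted p = 0.00231). Dusp1, a nuclear phosphatase of the same family as Dusp6, and Fosl1, an AP-1 subunit that depends on sustained ERK activity, fell by 1.97 and 1.75 on the log2 scale. Fosl1 lost its call without 2D culture 1 (adjusted p = 0.0543). Phlda1 rose from 33.6 ± 4.27 to 133 ± 76.9 CPM (1.99 ± 0.49, edgeR adjusted p = 0.0255), and Fos and Errfi1, an inhibitor of the EGF receptor, by 1.76 and 1.75. Etv1 and Errfi1 were the 2 risers of this list that kept their calls whichever of 2D culture 1, 2 and 3 was left out, where Phlda1 had an adjusted p of 0.0939 to 0.106 and Fos of 0.0673 to 0.0826. Over all genes, leaving out a 2D culture gave 1109 to 1211 calls of 13366 to 13395 tested, against 3594 of 13052. With total library size the edgeR adjusted p was 0.0802 for Phlda1 and 0.0551 for Fos. Phlda1 also lost its call without organoid 3 (adjusted p = 0.0524).

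Genes of the cascade between receptor and ERK were called at about the share of all genes. Among 21 tested genes 4 rose and 2 fell, while 15 did not pass, which is 28.6% called beside 27.5% of all genes (median 0.126). Mapk3, which encodes an ERK kinase, had 27.34, 33.81 and 28.04 CPM in 2D culture and 42.4, 116.2 and 44.8 CPM in organoids, without overlap. Its log2 fold change was 1.19 ± 0.43 and was not called (edgeR adjusted p = 0.0825).

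The exchange factor Sos1 and the adaptor Gab1 rose by 2.14 ± 0.47 and 1.22 ± 0.25 in log2 (edgeR adjusted p = 0.018 and 0.0136). Ptpn11, the phosphatase SHP2 that carries the signal from FRS2 to RAS, fell by 0.97 on the log2 scale (adjusted p = 0.0458). Without 2D culture 1, 2 or 3, 1 cascade gene rose and 0 fell. Over all genes, those fits called 1109 to 1211 of 13366 to 13395 tested, against 3594 of 13052 in the main fit. In them the edgeR adjusted p was 0.0648 to 0.09 for Sos1, 0.073 to 0.096 for Gab1 and 0.124 to 0.173 for Ptpn11. Ptpn11 also lost its call without organoid 1 (edgeR adjusted p = 0.0671). The same held for limma-voom with a weight per group, no filter on low counts and the replicate block. It was called in 7 of 14 alternatives. With total library size 1 gene of the cascade rose and 4 fell, and Sos1 and Gab1 were not called (adjusted p = 0.0531 and 0.163).

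FGF receptors need heparan sulfate, and 18 genes of enzymes that act on its chains were tested. Of these 7 fell, 2 rose and 9 did not pass, which is 50% called beside 27.5% of all genes (median -0.815, also with Hs3st1 at its bound), and Hs3st2 was below the filter. Hpse, Sulf1 and Sulf2 cut or trim chains, and of the other 15 enzymes 7 fell and 1 rose. Hs6st1, which adds the 6-O sulfate that FGF receptor complexes use, fell from 109.5, 139.7 and 122.5 CPM in 2D culture to 20.0, 20.4 and 14.3 CPM in organoids. Its log2 fold change was -2.77 ± 0.24 (edgeR adjusted p = 0.000802), and the call held in all 14 alternatives.

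Hs3st1, a 3-O sulfotransferase, had 161 counts in 2D culture and 0 in organoids (edgeR adjusted p = 0.0122). Against 3 counts over the group, with the 161 taken as exact, it was at least 30.1-fold lower. Extl1, of the chain-polymerase family, rose from 0.521 ± 0.434 to 14.1 ± 10.8 CPM (4.75 ± 1.14, edgeR adjusted p = 0.024). The heparanase gene Hpse, whose product cuts the chains, rose by 2.45 ± 0.31. Without 2D culture 1, 2 or 3, 1 enzyme fell and 1 rose. Hs3st1 and Extl1 were then not called (edgeR adjusted p = 0.0685 to 0.0734 and 0.0644 to 0.101). Over all genes, those fits called 1109 to 1211 of 13366 to 13395 tested, against 3594 of 13052 in the main fit. Extl1 also lost its call without organoid 1 (adjusted p = 0.0549). Hs3st1 lost it with the replicate number as a block (adjusted p = 0.0725), and Extl1 with limma-voom (adjusted p = 0.0828).

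**Figure D5:**
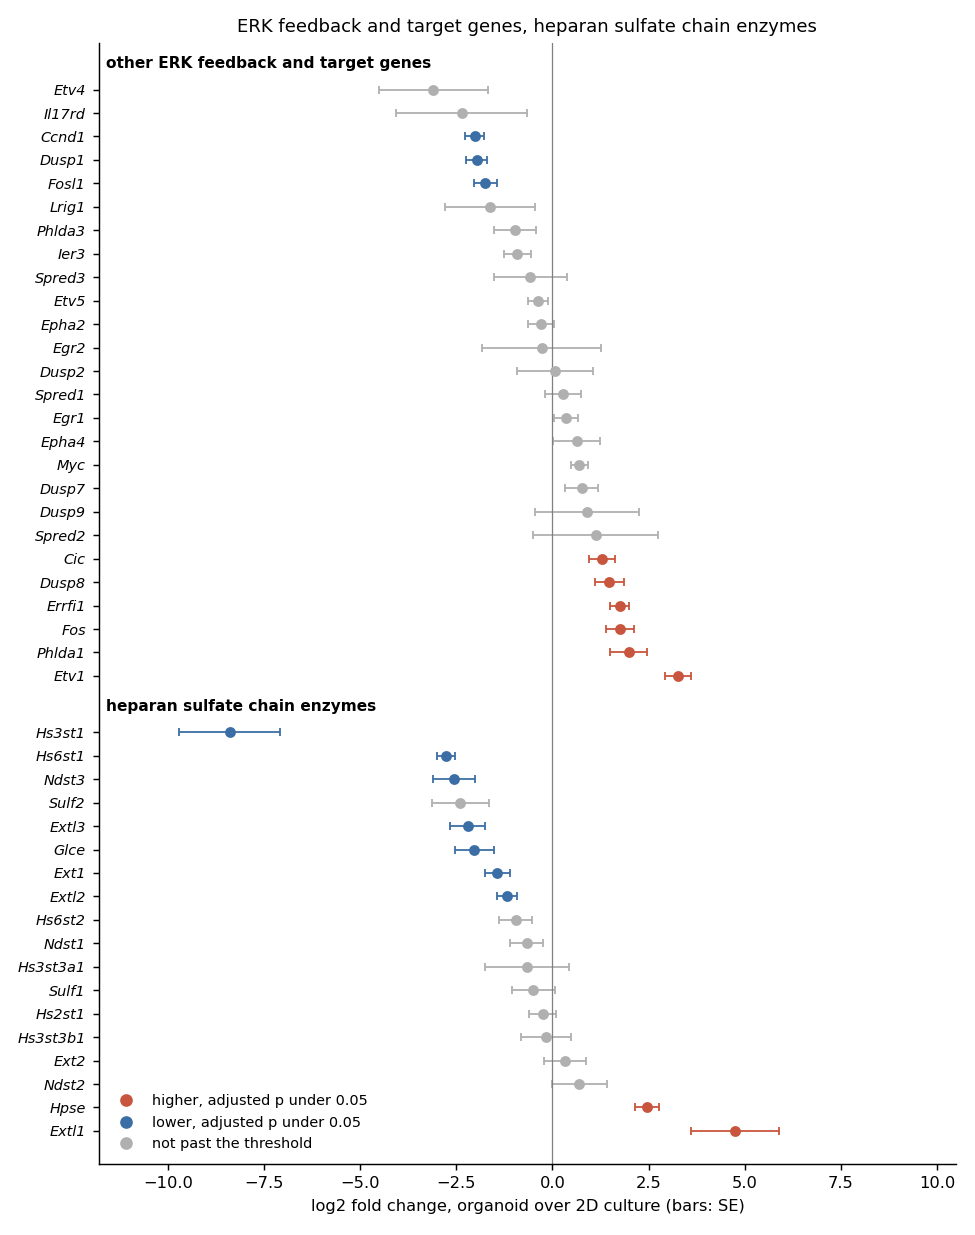
Log2 fold change, organoid over 2D culture, with SE for tested ERK feedback and target genes and for heparan sulfate chain enzymes, coloured red where higher, blue where lower and grey where not past the threshold. The fitted value of Hs3st1 rests on 0 counts in organoids; 7 of the 18 enzymes are blue and 2 red.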

How the data were processed

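The 6 mRNA libraries, 3 of 2D culture and 3 of organoids, were grouped and numbered by their titles. The authors deposited unnormalised expected counts, which can be fractional, for every gene in each library. Tools listed in the submitters' processing notes, with no version or role, are RSEM, Bowtie2, HISAT, HISAT2 and DESeq2. The sources used here do not give genome build, annotation or strand setting. Values were rounded to whole counts, 0 rows named no gene, and every pair of replicates differed by more than counting noise (chi-square over its degrees of freedom at least 8.80).

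Groups were compared in R 4.3.3 with edgeR 4.0.16 (filterByExpr with minimum count 10, TMM, robust quasi-likelihood F-test, Benjamini-Hochberg at 0.05, no replicate block). The SE was taken as the size of the log2 fold change divided by the root of F. DESeq2 1.42.0, limma 3.58.1, other scalings and filters, a replicate block and leaving out each library were alternatives. Receptor ratios were log2 of (count + 0.5) and were compared by exact permutation. The planned level per coding length was not used here, so receptor shares are of counts. The fit was tested on simulated data.

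The members and lists were chosen with earlier results of these data known. Some genes are not reported here. Otherwise the text names all members, 6 marker genes and the genes below the filter. From each other list it names up to 3 called genes, ranked by size of change and reaching 1 CPM in their higher group, and the most changed called gene of the opposite direction. Fgf1, Klb, Etv4, Etv5, Dusp1, Fosl1, Fos, Errfi1, Mapk3, Hpse, Sulf1, Sulf2, Fgf9, Fgf12, Fgf13, Fgf14, Fgf22, Nras, Shc1, Nudt6, Fam227b, Kdr, Cdh5, Emcn and Tie1 were named, and the split of lists by what a product does was made, after their values were seen. Intervals and count limits cover counting error only.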

Additional observations from a re-analysis of the deposited data

How the results depend on the processing

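Fgfr1, Fgfr3, Fgf7 and Dusp6 kept direction and call in all 14 alternatives, and Spry1, Spry2 and Spry4 were called in none. Total library size moved the median log2 fold change of all genes by -0.613, to -0.645, and gave 1063 genes higher and 3529 lower (23.1% of calls higher, against 54.1%). It took Fgfr2 to -0.0184, left 2 other receptors and partners lower, and gave 1 cascade gene higher and 4 lower and 2 ERK targets higher. Limma-voom gave 2478 genes lower (43.9% of calls higher), 2 receptors and partners lower, 6 ERK targets lower and 1 heparan sulfate enzyme higher. Limma-voom with a weight per group gave 5 ERK targets lower and 1 cascade gene lower, as did no filter on low counts for the cascade (1 lower). DESeq2 gave 3 other FGF-family genes higher and 2 receptors and partners in each direction. Of all 13052 genes tested, DESeq2 called 4925, limma-voom 4420 and limma-voom with weights 3769, against 3594 in the main fit. With no filter 3293 of 17090 genes were called.

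Same-numbered libraries had correlations of deviations of 0.0606, 0.187 and 0.0207, so the numbers were not taken to pair the samples. With the replicate block 1441 genes were higher and 1289 lower, 0 cascade genes fell, and the calls of Hs3st1, Nras, Ptpn11 and Shc1 were lost (adjusted p = 0.0725, 0.0516, 0.061 and 0.0904). The paired log2 ratio Fgfr3/Fgfr2 moved by 3.35 (exact sign-flip p = 0.25, the smallest for 3 pairs).

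Leaving out 1 library gave 703 to 2747 genes higher and 399 to 2574 lower of 13366 to 13477 tested, fewest without a 2D culture. It gave 2 to 3 members higher (Fgfr2 joined without organoid 2), 0 to 3 other FGF-family genes higher and 1 to 2 lower, and 1 to 2 receptors and partners higher and 1 to 3 lower. It gave 1 to 6 cascade genes higher and 0 to 4 lower, 2 to 9 ERK targets higher and 2 to 5 lower, and 1 to 2 heparan sulfate enzymes higher and 1 to 9 lower. Fgfr2 ran from 0.248 to 0.839, Spry1 from -0.634 to 2.04 and the Fgfr1 share difference from -3.89 to 2.36 points. Shares per coding length were not run. Depth limits Fgf2 and Fgf18, where 3 counts correspond to 0.0917 to 0.18 CPM in a library.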

Other observations

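Neighbouring genes that overlap members in the RefSeq table were measured beside them. Nudt6, which overlaps Fgf2, rose from 1.69, 2.11 and 1.89 CPM in 2D culture to 6.07, 6.31 and 11.6 CPM in organoids (2.07 ± 0.53 in log2, edgeR adjusted p = 0.0292), while Fgf2 was at 0 counts in every organoid. Fam227b, which overlaps Fgf7, was at 1.61 ± 0.204 CPM in 2D culture against 2.25 ± 1.04 CPM in organoids, a log2 fold change of 0.49 ± 0.68 that was not called (edgeR adjusted p = 0.631), while Fgf7 fell. Nudt6 had a fractional estimate in 1 library and Fam227b in 2.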
